A study of Mus musculus with 42 samples.

Results

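Open chromatin of hippocampal neurons was compared between Ts65Dn and euploid mice, as the 29195 and 15521 peaks listed for each genotype by ATAC-seq (assay for transposase-accessible chromatin with sequencing). These 44716 peaks are part of the 100790 regions in the 6 peak lists of the series. A Ts65Dn peak that overlapped a euploid peak by 1 bp or more was called shared. The other peaks were called Ts65Dn-only or euploid-only, a statement about presence in a list and not about absence of signal in the animals.

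The nuclei came from frozen hippocampus of adult male mice, 6 weeks old per the study's methods, and had been sorted for the neuronal protein NeuN. The genotypes shared 1 mixed background of DBA/2J and B6EiC3Sn/J. The labels give 3 ATAC-seq libraries for euploid, 3 for Ts65Dn and 3 for Ts65Dn;Brwd1+/-, but each genotype came as 1 list with no value per library. Ts65Dn mice carry a freely segregating extra chromosome made of the distal end of chromosome 16, homologous to part of human chromosome 21 and with Brwd1 on it, and of the centromeric end of chromosome 17, whose genes are not counterparts of that human chromosome. Ts65Dn;Brwd1+/- mice, used here only as a further list, carry the same chromosome and a heterozygous loss of Brwd1. With 1 list per genotype there was no replicate error and no test could be made: every difference below describes these 2 lists, and the intervals given are 95% intervals that cover counting error only. Sorted nuclei hold many kinds of neuron, so fewer nuclei with an open site and fewer open sites per nucleus cannot be told apart.

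The transposase used in ATAC-seq cuts DNA where nucleosomes leave it exposed, so reads pile up at active promoters and at distal regulatory elements such as enhancers. In neurons, promoters of housekeeping genes are open in most cell types, whereas many elements within and between long synaptic genes are open in particular neurons only. The BAF complex, whose ATPases are SMARCA2 and SMARCA4, moves nucleosomes and can open such sites, and BRWD1 is a bromodomain and WD-repeat protein that binds chromatin.

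Sequence is shown for peaks that stand for each outcome, as up to 200 bases of the plus strand (GRCm38, the mm10 build) chosen so that no annotated exon covers them. Capitals mark motif words that are spelled out with the sequence results, except at Cobl, where they mark a repeated unit. The first 5 lie in peaks listed in Ts65Dn only, the next 2 in peaks listed in euploid only, and the last 3 in peaks of both lists, with a high ratio of fold enrichment, a low one, and at Brwd1 itself.
Kif6, upstream of a start, chr17:49614926-49615125: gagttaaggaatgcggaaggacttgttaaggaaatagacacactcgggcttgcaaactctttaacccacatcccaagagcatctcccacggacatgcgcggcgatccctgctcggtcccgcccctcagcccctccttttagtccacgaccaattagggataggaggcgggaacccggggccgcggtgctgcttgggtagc
Ndufa9, just past the start, chr6:126848864-126849063: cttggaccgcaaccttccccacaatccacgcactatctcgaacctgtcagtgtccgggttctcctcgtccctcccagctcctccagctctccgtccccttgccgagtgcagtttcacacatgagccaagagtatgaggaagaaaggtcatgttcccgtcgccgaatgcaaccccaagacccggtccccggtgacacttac
Trim31, intron, chr17:36900070-36900269: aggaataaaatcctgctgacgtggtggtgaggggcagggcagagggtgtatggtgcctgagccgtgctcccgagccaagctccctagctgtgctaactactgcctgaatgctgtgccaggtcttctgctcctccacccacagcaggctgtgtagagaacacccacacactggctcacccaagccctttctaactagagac
Rbfox1, intron, chr16:7100002-7100201: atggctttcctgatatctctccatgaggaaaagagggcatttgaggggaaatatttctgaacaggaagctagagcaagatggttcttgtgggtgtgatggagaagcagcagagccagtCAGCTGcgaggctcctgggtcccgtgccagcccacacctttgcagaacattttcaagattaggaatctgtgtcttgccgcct
Gad1, gene body, chr2:70592526-70592725: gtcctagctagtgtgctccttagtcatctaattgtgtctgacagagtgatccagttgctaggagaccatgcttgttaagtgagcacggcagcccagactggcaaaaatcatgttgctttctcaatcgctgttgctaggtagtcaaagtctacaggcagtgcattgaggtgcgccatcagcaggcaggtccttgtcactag
Cobl, intron, chr11:12375032-12375231: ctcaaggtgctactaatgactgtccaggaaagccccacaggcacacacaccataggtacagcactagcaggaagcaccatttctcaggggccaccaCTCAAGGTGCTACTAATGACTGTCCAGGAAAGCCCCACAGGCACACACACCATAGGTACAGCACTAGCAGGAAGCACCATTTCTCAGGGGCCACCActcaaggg
Gpc6, intron, chr14:117383298-117383497: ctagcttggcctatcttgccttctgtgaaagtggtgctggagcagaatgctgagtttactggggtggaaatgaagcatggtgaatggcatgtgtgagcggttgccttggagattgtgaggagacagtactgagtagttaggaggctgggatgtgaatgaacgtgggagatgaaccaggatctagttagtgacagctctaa
Gm7430, between genes, chr1:159211755-159211954: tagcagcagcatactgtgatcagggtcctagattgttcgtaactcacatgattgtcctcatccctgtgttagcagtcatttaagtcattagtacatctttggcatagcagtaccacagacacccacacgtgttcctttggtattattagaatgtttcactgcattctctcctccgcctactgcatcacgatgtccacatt
Hmgb2, upstream of a start, chr8:57511650-57511849: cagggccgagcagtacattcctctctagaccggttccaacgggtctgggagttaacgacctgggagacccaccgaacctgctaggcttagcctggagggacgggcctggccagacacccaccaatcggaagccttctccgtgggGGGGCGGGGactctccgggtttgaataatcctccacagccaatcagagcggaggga
Brwd1, near the start, chr16:96081614-96081813: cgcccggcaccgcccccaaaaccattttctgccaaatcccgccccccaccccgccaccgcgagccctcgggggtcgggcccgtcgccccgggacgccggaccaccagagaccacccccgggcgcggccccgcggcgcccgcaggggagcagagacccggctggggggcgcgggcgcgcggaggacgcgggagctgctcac
Outside the Cobl stretch, a word is marked in the Rbfox1 intron, an E-box, and in the Hmgb2 promoter, a GC box. The Cobl stretch is a tandem repeat, in which the bases 96 positions apart were the same in 99.0% of cases, and the capitals mark its second copy.

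The Ts65Dn list was 1.88 times as long as the euploid list and covered 12.5 Mb against 6.20 Mb. It held 14621 peaks with no euploid counterpart, 50.1% of the list (95% interval 49.5 to 50.7%), whereas 509 euploid peaks, 3.28% (3.01 to 3.57%), had no Ts65Dn counterpart. Put the other way, 96.7% of the euploid peaks were also in the Ts65Dn list. Nearly the whole euploid list was thus contained in the Ts65Dn list. Each peak came with a fold enrichment, the ratio of reads at its summit to the reads that its surroundings would give, and its median was 4.01 in the euploid list and 4.19 in the Ts65Dn list.

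The depth of the libraries is unknown, but the values hold a trace of it. A part of the fold enrichments in each list, 16.7% in euploid and 19.6% in Ts65Dn, were whole multiples of a smallest step, 0.105 in euploid and 0.108 in Ts65Dn. If this step is 1 read over a genome-wide background plus 1 pseudo-read, as the peak caller computes it, the background was 8.56 reads per 200 bp in euploid and 8.30 in Ts65Dn. On that reading the longer list had the lower background, by a factor of 0.970, and the lowest summit in these whole-step peaks was 25 reads in both lists. The background of the Ts65Dn;Brwd1+/- list, with 30244 peaks, was 10.9 reads. Total reads, duplicates and the share of reads in peaks were not analysed here, and the part that library quality has in the list lengths was not tested.

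Ts65Dn-only peaks were weak and narrow. Their fold enrichment had a median of 3.66 (quartiles 3.27 and 4.12) against 5.20 (4.30 and 6.32) for the shared Ts65Dn peaks, and their median width was 264 bp against 512 bp. The share of Ts65Dn peaks found in the euploid list went from 11.7% below a fold enrichment of 3 to 43.1% between 4 and 4.5, 84.6% between 5 and 6 and 97.7% between 6 and 7. Of the 2080 Ts65Dn peaks at 7 or more, 2077 were in the euploid list. Euploid peaks were found in the Ts65Dn list at 91.6% below 3 and at 99.8% between 5 and 6. At the edge of the rule, the 73 Ts65Dn peaks that were shared by less than 50% of the shorter peak had a median fold enrichment of 3.26, and the 908 that missed a euploid peak by 500 bp or less had 3.15. Most Ts65Dn-only peaks were far from any euploid peak: the median distance was 33.5 kb, and 7.83% lay within 1 kb.

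**Figure D1:**
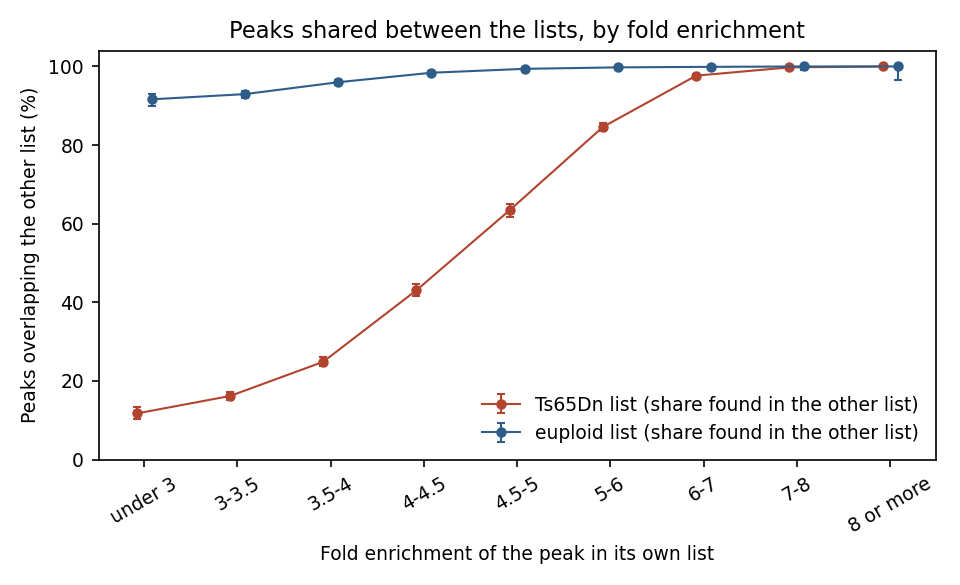
Share of peaks (vertical axis, percent) that overlap a peak of the other list by 1 bp or more, in classes of the peak's own fold enrichment (horizontal axis), for the Ts65Dn list (red) and the euploid list (blue); bars are 95% Wilson intervals. The Ts65Dn share climbs from 11.7% to 100%, while the euploid share starts at 91.6%.

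Added peaks lay mainly away from promoters. Proximal promoters, which the annotation sets within 250 bp of a transcript start, made up 17.2% of the Ts65Dn-only peaks (16.6 to 17.8%) and 56.8% of the shared ones (56.0 to 57.6%). Gene bodies, more than 3 kb past a start, held 37.0% of the Ts65Dn-only and 16.8% of the shared peaks, and intergenic sites held 28.3% and 15.0%. Counted by region, the Ts65Dn list had 7859 gene body peaks against 2624 in euploid, 3.00 times as many, and 10795 proximal promoter peaks against 8557, 1.26 times as many. The 509 euploid-only peaks were spread much like the added ones, with 16.7% at proximal promoters (13.7 to 20.2%), 31.8% in gene bodies and 32.8% in intergenic sites. This likeness depended on the overlap rule: when 50% of both peaks had to overlap, 3107 peaks were euploid-only, 54.2% of them at proximal promoters, against 23.3% of the Ts65Dn-only peaks.

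Shared promoter peaks had a median fold enrichment of 5.78 and shared gene body peaks of 4.59. Within a class of fold enrichment, promoter peaks were still found in the euploid list more often. Between 4 and 4.5, this was 65.6% of the 1105 promoter peaks and 35.6% of the 3315 other peaks, and between 5 and 6 it was 93.1% and 75%. Among the annotated gene types, 44.6% of Ts65Dn peaks at protein-coding genes, 57.2% at lincRNA genes and 65.4% with no gene were Ts65Dn-only, beside the 50.1% of the whole list.

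**Figure D2:**
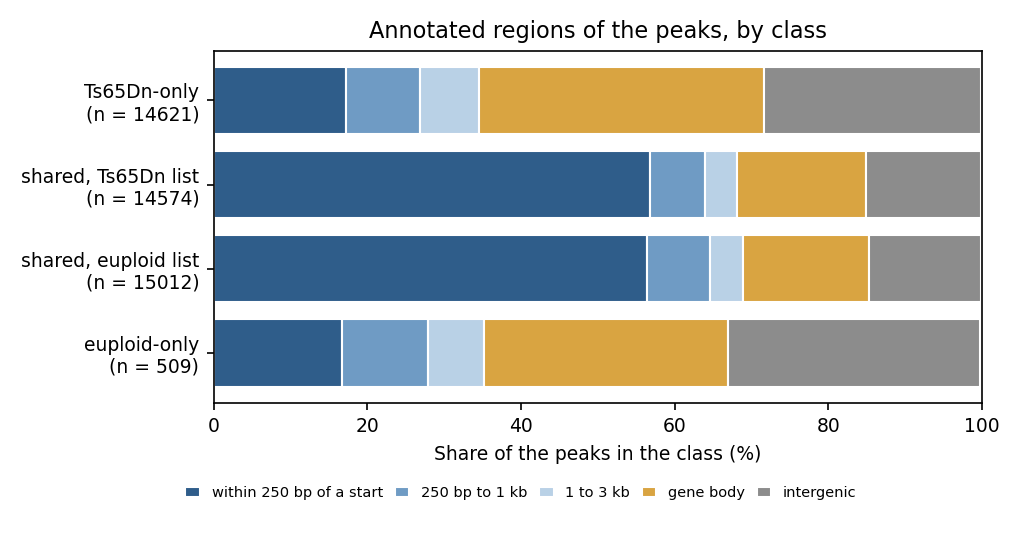
Share of peaks (horizontal axis, percent) in each annotated region, one bar for each class of peak. The dark blue part, within 250 bp of a transcript start, takes 17.2% of Ts65Dn-only, 56.8% of shared Ts65Dn and 16.7% of euploid-only peaks; subtelomeric peaks, at most 0.196% of a class, are left out.

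The strongest added peaks were few, and several were promoters. A fold enrichment of 6 was reached by 62 of the 14621 Ts65Dn-only peaks (0.424%), and 3 reached 7. The highest, at 7.85, covered an exon of Mmp25, a membrane-anchored matrix metalloproteinase (chr17:23630237-23630564). Next came the promoter of Kif6, a kinesin motor, at 7.10 (chr17:49614803-49615249), and that of Rsph3a, a radial spoke protein of cilia, at 7.02 (chr17:7945418-7946122). The gene lies in the triplicated part of chromosome 17, and Mmp25 and Kif6 outside it. An intron of Trim31, a ubiquitin ligase, had 6.99, and an intron of Rbfox1, a neuronal splicing factor, had 6.89 (chr16:7099878-7100325). The nearest euploid peak to any of these 5 was 18603 bp away, at Rbfox1.

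The other 5 of the 10 highest held 4 promoters. Among them were Ndufa9, a subunit of respiratory complex I, at 6.77 (chr6:126848834-126849325), Uxt, a prefoldin-like protein, at 6.77 (chrX:20961569-20962245), and Ppie, a peptidyl-prolyl isomerase, at 6.62. The peak assigned to 2010107E04Rik, at 6.74, overlapped an exon that the annotation used here names Atp5mpl, a small protein of the mitochondrial ATP synthase. An intron of Ppm1k, a mitochondrial phosphatase of branched-chain amino acid breakdown, had 6.57. Of the 59 Ts65Dn-only peaks with a fold enrichment between 6 and 7, 57 (96.6%) were also listed in Ts65Dn;Brwd1+/-. All 10 peaks named here were listed there too, with fold enrichments from 4.02 to 5.70. They were chosen for their height in Ts65Dn, and the median of that further list was lower as a whole, 3.6 against 4.19, so no comparison of height is drawn.

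Among genes with a proximal promoter peak in either list, 1966 of 10670 (18.4%) had it in the Ts65Dn list only and 62 in the euploid list only. Neurod2, a transcription factor of excitatory neurons, was one such gene, with a promoter peak of 3.43 in Ts65Dn and none in euploid. Gabrd, the delta subunit of the GABA-A receptor, had 4.01 (chr4:155397968-155398268), and Uqcrb, a subunit of respiratory complex III, had 5.38 (chr13:66905256-66905537).

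Euploid-only peaks were weaker still, with a median fold enrichment of 3.35 (quartiles 3.07 and 3.66), and 6 of them reached 5. The highest of all, 6.91, was assigned to no gene. The highest at a named gene, 5.96, was the tandem repeat in the Cobl intron, a gene for an actin nucleator, and it lay 1257 bp from the nearest Ts65Dn peak. Gpc6, a glypican, followed at 5.02, and Col23a1, a collagen, at 4.77. Gm26870 (4.74) and Gm10717 (4.61) are predicted genes near the start of chromosome 9 (chr9:3018284-3018488 and chr9:3027055-3027270), Plcb4 is a phospholipase C (4.71), and Pde4d a cyclic AMP phosphodiesterase (4.49). Gm16090 (4.60), Gm16271 (4.48) and Adamtsl1 (4.39) complete the ranking. In 5 of these 10 windows, 94.5% or more of the bases were soft-masked as repeats. Over the 497 euploid-only peaks with a sequence window, 29 windows (5.84%) were at least 50% soft-masked. By the same count this was 1.44% of the Ts65Dn-only and 0.639% of the shared Ts65Dn peaks. The part of repeats in these peaks was not tested.

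The lists were also compared at equal numbers of peaks, where the shares found in the other list are almost bound to be equal in both directions. Of the 15521 Ts65Dn peaks with the lowest q-values, as many as the euploid list holds, 79.4% (78.8 to 80.1%) overlapped a euploid peak, and 82.5% of the euploid peaks overlapped one of them. For the top 7760 these shares were 82.6% and 83.4%, and for the top 1000 they were 70.8% and 70.8%. Ranking by fold enrichment gave 75.6% and 78.7% at 15521 peaks. The top 1000 differed mainly in rank, since 100% of the Ts65Dn top 1000 by q-value were somewhere in the euploid list. Proximal promoters made up 54.4% of the top 15521 in Ts65Dn and 55.1% in euploid, and the peaks not shared at this size were at proximal promoters in 24% of the 3194 on the Ts65Dn side and 24.7% of the 2710 on the euploid side. Ranked by fold enrichment, these were 18.9% of 3785 and 31.2% of 3311. The gap in fold enrichment remained: the 1000th peak had 7.74 in Ts65Dn and 6.41 in euploid, and the 10000th 4.79 and 3.66.

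**Figure D3:**
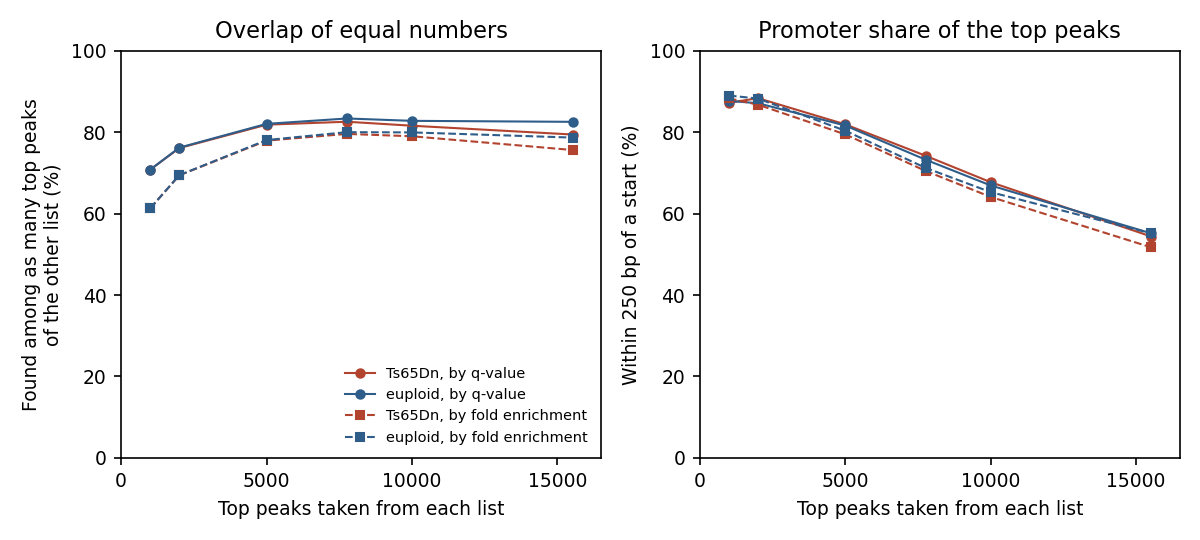
Equal numbers of top peaks from each list (horizontal axis), ranked by q-value (circles, solid lines) or fold enrichment (squares, dashed lines), in Ts65Dn (red) and euploid (blue). Left, the share found among as many top peaks of the other list, between 61.3% and 83.4%; right, the share within 250 bp of a transcript start, which goes from 89.0% or less to between 51.7% and 55.1% in both genotypes.

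At the sites present in both lists, the Ts65Dn fold enrichment was the higher one almost everywhere. Peaks that overlapped each other best in both directions gave 14496 pairs, with a median of 5.21 in Ts65Dn and 4.08 in euploid. The log2 ratio of Ts65Dn to euploid had a median of 0.30 (0.29 to 0.30 by the interval of the median; quartiles 0.15 and 0.45), a fold of 1.23, and was above 0 in 92.4% of pairs. A ratio over 1.5-fold in favour of Ts65Dn was seen in 1408 pairs (9.71%), and over 1.5-fold in favour of euploid in 1 pair (0.0069%). Ts65Dn peaks were also the wider ones in 88.4% of pairs, with a median of 514 bp against 350 bp, and 511 Ts65Dn peaks each covered several euploid peaks. The difference thus ran through nearly the whole set of pairs.

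The ratio was nearly the same in each region. Its median was 0.30 at proximal promoters (8245 pairs), 0.30 in gene bodies (2443) and 0.29 in intergenic sites (2188), and 0.25 between 250 bp and 1 kb from a start (1005). It hardly moved with base composition, from 0.28 in the 2959 pairs with a GC content up to 51.5% to 0.32 in the 2780 pairs with the highest. By the geometric mean of the pair, the median was 0.25 below a fold enrichment of 4, 0.34 from 4 to 5, 0.26 from 6 to 8 and 0.18 at 8 or more (224 pairs). Among the chromosomes it ran from 0.24 on chromosome 10 to 0.41 on chromosome 7, leaving out chromosome Y with 1 pair. In the 8 pairs of the mitochondrial genome it was 0.01. Their median fold enrichments, 1.97 in Ts65Dn and 1.96 in euploid, were near the lowest of the lists (1.71 and 1.73), so these pairs are no like comparison. For the 1248 pairs in which both fold enrichments were whole steps of the genome-wide background the median log2 ratio was 0.34.

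**Figure D4:**
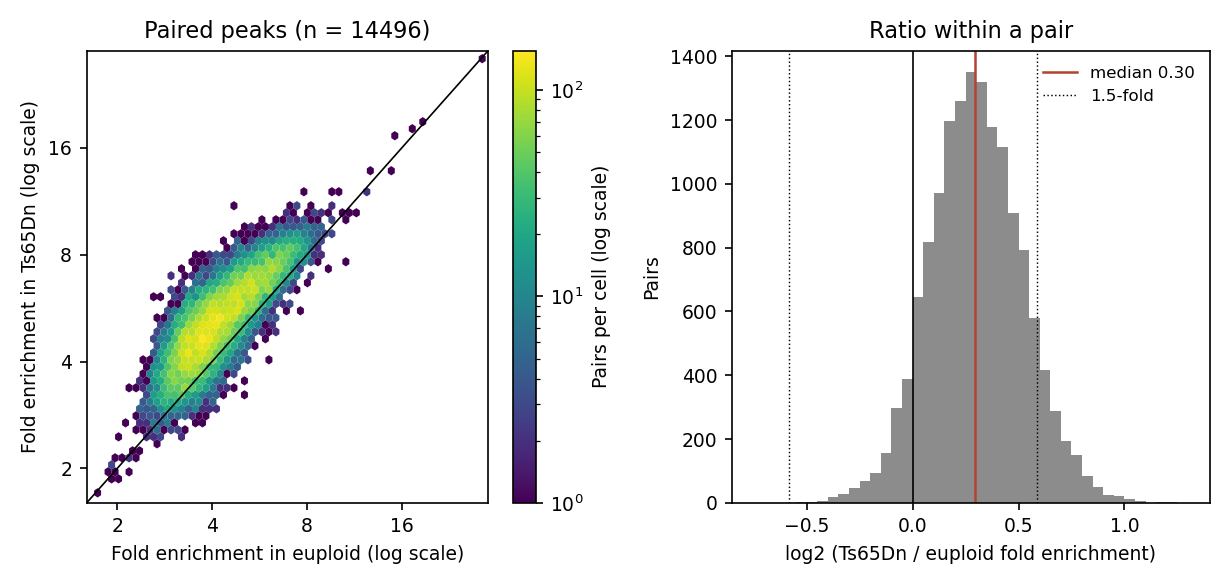
Left, fold enrichment in euploid (horizontal, log scale) and in Ts65Dn (vertical, log scale) of the 14496 paired peaks, with colour for the number of pairs per cell and a line of equality. Right, the distribution of the log2 ratio within a pair, with its median of 0.30 in red and 1.5-fold in either direction dotted; nearly all of the distribution lies to the right of 0.

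The log2 ratio ran from -0.69 to 1.26. Of pairs at a named gene with a fold enrichment of at least 4 in 1 list, the highest was the promoter of Zfp61, a zinc finger protein, with 6.96 in Ts65Dn and 2.94 in euploid (log2 ratio 1.24, chr7:24299062-24299695). Fyn, a Src-family kinase of the postsynaptic density, followed with 6.83 and 2.94 (1.22), and Pafah1b1, the LIS1 regulator of dynein, with 7.29 and 3.20 (1.19). The intergenic site upstream of Gm7430 had 7.85 and 3.45 (1.18), from 72 and 32 reads at the summit, and an exon of Ltbp3, which binds latent TGF-beta, had 6.00 and 2.67 (1.17). In Ts65Dn;Brwd1+/- these 5 sites had 5.10, 6.72, 6.11, 6.04 and 3.80 in the same order. They were chosen for their ratio, and the median of that further list was lower as a whole, 3.6 against 4.19, so no comparison of height is drawn.

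At the low end of the same pairs, the predicted gene Gm15564 had 3.52 in Ts65Dn and 5.12 in euploid (log2 ratio -0.54), Ncam1, the neural cell adhesion molecule, 2.90 and 4.07 (-0.49), and the long non-coding Panct2 3.33 and 4.67 (-0.49). The promoter of Hmgb2, a high mobility group chromatin protein, had 7.70 and 10.4 (-0.43), and Lingo2, a neuronal leucine-rich repeat protein, 3.09 and 4.13 (-0.42). In Ts65Dn;Brwd1+/- Ncam1 had 3.74, Panct2 3.77, Hmgb2 8.88 and Lingo2 3.14, with no value at Gm15564. The 5 high pairs differed by 2.24-fold to 2.37-fold, and the 5 low pairs by 1.33-fold to 1.45-fold. These folds are taken from equality, while the median over all pairs was 1.23-fold higher in Ts65Dn.

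The genes with the most added peaks were long. Peaks were assigned to 14144 genes, of which 6704 (47.4%) had a Ts65Dn-only peak and 329 (2.33%) a euploid-only peak, and 173 had both. Dab1, the adaptor of the reelin signal, had 21 Ts65Dn-only peaks among its 24 Ts65Dn peaks, with fold enrichments up to 5.30, and 5 peaks in euploid. Asic2, an acid-sensing channel, had 20 and no euploid peak at all. Kalrn, an exchange factor of dendritic spines, had 17 of 26, and Dlg2, the postsynaptic scaffold PSD-93, 16 of 17, its shared promoter peak having 5.16 in Ts65Dn and 3.98 in euploid.

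Msra, a methionine sulfoxide reductase, followed with 15, and Gm20388, a predicted gene of 4435 kb, with 14. Ptprn2, a phosphatase-like protein of secretory vesicles, Nav2, a neuron navigator, Dlgap1, a scaffold of the postsynaptic density, and Myt1l, a transcription factor of neurons, had 13 each. Per Mb of gene the 10 ranged from 3.16 in Gm20388 to 45 in Msra, beside 11.4 over all genes with a peak. Genes with 10 or more Ts65Dn-only peaks (30) had a median length of 757 kb, those with 1 had 25 kb and those with none 19.05 kb. Of the 2730 longest genes, above 81.4 kb, 72.1% had a Ts65Dn-only peak, and of the 2730 shortest, up to 7.19 kb, 39.5%.

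Most euploid-only peaks per gene were 3, in Pde4d, which also had 10 Ts65Dn-only peaks. Gm26870, Plcb4, Tusc3 and Chl1 had 2 each. In Chl1, which encodes a cell adhesion protein close to L1, the euploid-only peaks had 3.66 and 3.87, while the strongest peak of the gene was shared, with 17.5 in euploid and 17.9 in Ts65Dn. Of the 329 genes with a euploid-only peak, 52.6% also had a Ts65Dn-only peak, beside 47.4% of all genes with a peak.

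Across 19 gene lists, the share of members with a Ts65Dn-only peak was above the 47.4% of all genes in 15. A gene with no euploid peak entered the count only through its Ts65Dn peaks, so its outcome was largely set by how it entered. Such genes were 4 of 4 GABAergic markers, 5 of 7 astrocyte markers, 3 of 7 homeobox and 11 of 41 triplicated genes. They were 0 of 13 immediate early and 2 of 37 ribosomal protein genes, beside 27.8% of all genes. Voltage-gated channel genes had one in 26 of 28 (92.9%, 77.4 to 98.0%). Cacna1d, a calcium channel, had 10 Ts65Dn-only peaks, and Kcnd3, Cacna2d3 and Cacna1c had 6 each. At their promoters, 14 of the 24 channel genes with a proximal promoter peak had it in Ts65Dn only, beside 18.4% of all genes. No euploid peak was listed at 7 of the 28, beside 3928 of all 14144 genes (27.8%). The median length of the 28 genes was 266 kb, and the part of length in this share was not tested.

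Glutamate receptor genes had 18 of 20 (90.0%), with 9 Ts65Dn-only peaks in Grik4, 8 in Grid1, 7 in Grin2a and 6 in Gria1. Synaptic adhesion and axon guidance genes had 23 of 28 (82.1%), led by the neurexin Nrxn3 with 11, the guidance ligand Slit3 with 9, Dscam with 9 and Slit1 with 7. Synaptic vesicle genes had 16 of 22 (72.7%), with 7 in the calcium sensor Syt1, 4 in Syt7, 3 in Nsf and 3 in Sv2b, and 8 of the 21 with a promoter peak had it in Ts65Dn only. Kinases and phosphatases of long-term potentiation had 14 of 21 (66.7%), with 4 in Prkcb and in Adcy8 and 3 in the acetyltransferase Crebbp and in Camk4. GABA receptor genes had 8 of 13 (61.5%), of which Gabbr2, a subunit of the GABA-B receptor, had 12 Ts65Dn-only peaks, Gabbr1 3, Gabra5 2 and Gabrd 2.

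With both lists held to 15521 peaks by q-value, the shares of these 6 lists were lower. An unshared Ts65Dn peak was then found in 50% of 24 channel, 46.2% of 26 adhesion and guidance, 38.9% of 18 glutamate receptor, 21.1% of 19 vesicle, 20% of 20 potentiation and 15.4% of 13 GABA receptor genes, beside 17.4% of all genes with a peak. By fold enrichment the shares were 45.5%, 63.0%, 38.9%, 11.1%, 20% and 25% in the same order, beside 18.6%. GABA receptor genes thus lay below all genes in the first ranking, and vesicle genes in the second. Per Mb of gene, each of the 6 lists had fewer Ts65Dn-only peaks than the 11.4 of all genes, from 5.11 in adhesion and guidance genes and 6.90 in glutamate receptor genes to 10.7 in channel genes.

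Housekeeping genes had low shares. Ribosomal protein genes had a Ts65Dn-only peak in 3 of 37 (8.11%, 2.80 to 21.3%), namely Rps4x at 4.09, Rpl7 at 3.46 and Rpl19 at 2.67, and 34 of the 37 had a promoter peak shared by both lists. Respiratory chain genes had 4 of 33 (12.1%, 4.82 to 27.3%), namely Ndufa9 at 6.77, Uqcrc2 at 5.59, Uqcrb at 5.38 and Cox6c at 4.20. With a fold enrichment of at least 4 in both lists these shares were 21.4% of 28 and 25.8% of 31, beside 47.6% of all genes. These genes are short, with a median of 3.81 and 9.35 kb, and per Mb they had 14.8 and 6.14 Ts65Dn-only peaks, beside 11.4 over all genes. Their pairs did not lack the general difference, with a median log2 ratio of 0.31 over 30 ribosomal and 0.25 over 28 respiratory pairs, beside 0.30 over all pairs at a gene.

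Immediate early genes, which neurons switch on after activity, had 4 of 13 (30.8%) and a median log2 ratio of 0.18 over 20 pairs. With a fold enrichment of at least 4 in both lists, the share was instead 85.7% of the 7 genes that kept a peak, beside 47.6% of all genes, and at equal list lengths it was 7.69% of 13 by q-value and 0 of 13 by fold enrichment, beside 17.4% and 18.6%. The promoter of Fos had 4.26 in Ts65Dn and 3.10 in euploid. Bdnf had 5 Ts65Dn and 4 euploid peaks, of which 1, at 3.58, was Ts65Dn-only, and Egr3 had 1 at 3.32, Nr4a2 1 at 3.20 and Junb 1 at 2.01. Developmental homeobox and patterning genes, silent in most adult neurons, had a peak in 7 of 42. Of these 7, 5 had a Ts65Dn-only peak (71.4%, beside 47.4% of all genes), among them Lmx1b at 4.63, Pax2 at 4.04, Emx2 at 3.76 and Lhx2 at 3.21. At equal list lengths the share was 33.3% of 6 by q-value and 20% of 5 by fold enrichment, beside 17.4% and 18.6% of all genes.

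Subunits of the BAF complex had a Ts65Dn-only peak in 13 of 26 (50%), beside 47.4% of all genes. At equal list lengths the share was 8% of 25 by q-value and by fold enrichment, below the 17.4% and 18.6% of all genes. Arid1b, which lies in the triplicated part of chromosome 17, had 12 of the list's 36 Ts65Dn-only peaks, Dpf3 and Bcl11b 5 each and Bcl11a 3. The promoters of both ATPase genes were shared, with 6.41 in Ts65Dn and 6.02 in euploid at Smarca2 and 9.23 and 7.49 at Smarca4 (chr9:21615678-21616626). Smarca4 also had 2 Ts65Dn-only gene body peaks, at 5.16 and 3.42, and Smarca2 had 1 at 2.76.

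**Figure D5:**
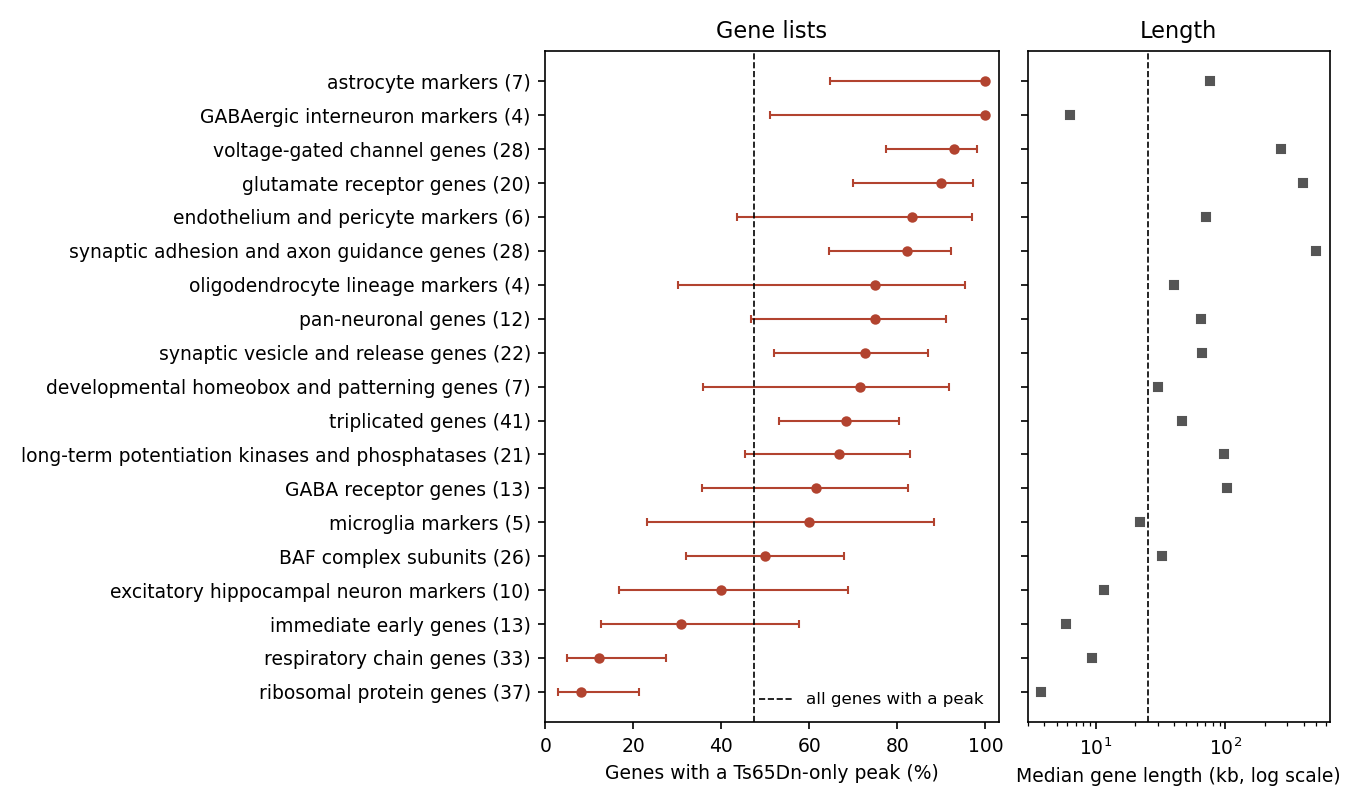
Left, share of the genes with any peak that have a Ts65Dn-only peak (horizontal axis, percent) for each gene list, with the number of genes in brackets, 95% Wilson intervals and the 47.4% of all genes dashed. Right, the median gene length of each list (kb, log scale), dashed at 25.3 kb for all genes; ribosomal protein genes are lowest on both axes, and channel genes are high on both.

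The labelled cell type was checked through the peaks at marker genes. All 12 pan-neuronal genes had a Ts65Dn peak and 10 had a euploid peak. Rbfox3, the gene for NeuN by which the nuclei were sorted, had 7 Ts65Dn peaks, 6 of them Ts65Dn-only, and 1 euploid peak, a pair in the gene body with 4.21 and 3.20. Celf4 had 8 Ts65Dn-only peaks, Syt1 7 and Elavl3 4. Of excitatory markers 10 of 12 had a Ts65Dn and 7 a euploid peak: Slc17a7, the vesicular glutamate transporter, had a pair upstream with 4.55 and 3.47 and a Ts65Dn-only peak at 2.65, and Neurod2 had 1 at 3.43 and Tbr1 1 at 2.85.

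Markers of other cells had peaks too. Of all 14144 genes with a peak, 13652 had one in the Ts65Dn list and 10216 in the euploid list, so most lists hold more genes with a Ts65Dn peak. GABAergic interneuron markers had a peak in 4 of 12, each a Ts65Dn-only peak, namely Gad1, which makes GABA, at 4.04, Dlx1 at 3.05, Npy at 2.92 and Dlx5 at 2.83, whereas 0 had a euploid peak. Astrocyte markers had a Ts65Dn peak in 7 of 12 and a euploid peak in 2, with 3 Ts65Dn-only peaks in Aldh1l1, 1 in Slc1a2, 1 in Gli3 and 1 in Gfap, while Aqp4 and Gja1 had none in either list. Oligodendrocyte markers had 3 and 2 of 12, with Ts65Dn-only peaks in Mbp, Mobp and Cspg4 a euploid-only peak of 3.99 and no Ts65Dn peak at Pdgfra, and no peak at Sox10, Olig1 or Olig2. Microglial markers had 4 and 2 of 12, with Itgam at 4.95, P2ry12 at 3.76 and C1qc at 3.46, and none at Cx3cr1 or Csf1r, while Aif1 had a euploid-only peak. Endothelial markers had 6 and 3 of 12, with Kdr at 4.73, Erg at 3.68, Flt1 at 3.66 and Pecam1 at 3.65. Proximal promoter peaks were seen in 0 of the 6 endothelial and 2 of the 7 astrocyte markers with a peak. They were seen in 1 of 4 oligodendrocyte and 2 of 5 microglial ones. GABAergic markers had them in 2 of 4 and pan-neuronal genes in 11 of 12, beside 10670 of all 14144 genes. Whether another mix of cells in the sort has a part in the longer list was not tested.

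At shared sites the log2 ratio was lower in the chromosome 16 part of the extra chromosome than elsewhere. In the triplicated segment (chromosome 16 from Mrpl39 on and chromosome 17 up to Pde10a), 242 of 390 Ts65Dn peaks were Ts65Dn-only (62.1%, 57.1 to 66.7%) against 49.9% elsewhere and 52.6% in the rest of chromosomes 16 and 17, and the list was 2.50 times as long as in euploid there. The median log2 ratio of the 148 pairs was 0.20 against 0.30 elsewhere, a difference of -0.09. Against the rest of chromosomes 16 and 17, with a median of 0.35, the difference was -0.14. Fold enrichment is a ratio to the surroundings, which lie in the extra chromosome too, and the part of copy number was not tested. The chromosome 16 part had 0.19 over 108 pairs (0.13 to 0.23) and the chromosome 17 part 0.29 over 40 pairs (0.19 to 0.37), an interval that holds the value elsewhere. In 133 of the 148 pairs neither fold enrichment was a whole step, with a median of 0.19, and in 2 pairs both were, with 0.71.

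Of a list of 51 triplicated genes with a counterpart on human chromosome 21, 41 had a peak and 28 of these (68.3%) a Ts65Dn-only peak, beside 47.4% of all genes. At equal list lengths this was 27.3% of 33 by q-value and 21.2% of 33 by fold enrichment, beside 17.4% and 18.6% of all genes. Dscam had 9, the potassium channel Kcnj6 7, the amyloid precursor gene App 6 and the glutamate receptor Grik1 4. The peak near the App start had 4.43 in Ts65Dn and 4.58 in euploid, that at Sod1, a superoxide dismutase, 4.12 in Ts65Dn over 2 euploid peaks of 3.22 and 3.41, and the peak near the start of the kinase gene Dyrk1a 5.45 and 5.06. At Brwd1, a Ts65Dn peak of 4.21 (chr16:96081340-96082895) spanned 2 euploid peaks of 3.03 and 3.30, and there was 1 Ts65Dn-only peak at 3.04.

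Other lists of the series covered the same sites in part. Of the Ts65Dn-only peaks, 64.3% (63.6 to 65.1%) overlapped a peak of Ts65Dn;Brwd1+/- neurons, against 97.7% of the shared Ts65Dn peaks and 51.1% (46.7 to 55.4%) of the euploid-only peaks. This share went from 47.3% of the Ts65Dn-only peaks below a fold enrichment of 3 to 92.7% between 5 and 6. SMARCA2/4 sites of euploid hippocampus, 22667 in number, overlapped 17.3% of the Ts65Dn-only, 36.9% of the shared Ts65Dn and 12.6% of the euploid-only peaks. At proximal promoters these shares were 23.4%, 38.7% and 14.1%, and in other regions 16%, 34.5% and 12.3%. The SMARCA2/4 list of Ts65Dn hippocampus held 1290 sites and overlapped 0.937% of the Ts65Dn-only, 2.24% of the shared Ts65Dn and 2.36% (12 of 509, 1.35 to 4.08%) of the euploid-only peaks. Shared peaks are also wider (512 bp against 264 bp), and the part of width in these shares was not tested.

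Base composition followed position. In the 200 bp at the centre, Ts65Dn-only peaks had a median GC content of 52.5% and 4 CpG, shared Ts65Dn peaks 62.0% and 13, and euploid-only peaks 53.0% and 4. Within proximal promoters the medians were 65.5% for Ts65Dn-only and 67.5% for shared peaks, and elsewhere 51.5% and 53.0%. Of the 10 short words searched on both strands of this window, with overlaps allowed, the E-box CAGATG, a form bound by proneural factors such as NEUROD2, was in 30% of Ts65Dn-only peaks (29.3 to 30.7%), 16.7% of shared Ts65Dn peaks, 18.9% of euploid-only peaks and 23.3% of all. Away from promoters the 3 shares came to 34.1%, 31.2% and 21.8%. The AP-1 word TGANTCA was in 10.8%, 6.28% and 10.7% of the 3 classes and 8.59% of all, and outside promoters in 12.4%, 11.9% and 11.2%. The E-box CAGCTG was in 19.1%, 13.6% and 13.7%, and in 16.3% of all.

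Words of promoters ran the other way. The GC box GGGGCGGGG was in 4.03% of Ts65Dn-only, 10.2% of shared Ts65Dn and 2.41% of euploid-only peaks, and in 7.04% of all. The ETS word CCGGAAGT was in 0.938%, 3.64% and 0.805% (2.26% of all), the YY1 word AAGATGGCG in 0.418%, 1.90% and 0.604% (1.15%), the NRF1 word GCGCATGCG in 0.568%, 1.67% and 0.604% (1.11%), and the CRE word TGACGTCA in 0.554%, 1.64% and 0.201% (1.08%). Within proximal promoters the ETS share was 3.85% in Ts65Dn-only and 6.03% in shared peaks, and the YY1 share 1.55% and 3.15%. The CTCF word CCACNAGGG was in 1.70%, 1.15% and 1.41% (1.42%), and the MEF2 word CTATTTTTA in 0.780%, 0.440% and 0.604% (0.610%). A word in a window is a description of its letters and not a bound site.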

How the data were processed

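ATAC-seq libraries of sorted neuronal nuclei, 3 per genotype, had been aligned by the authors to mm10 with HISAT2, keeping uniquely mapped reads and removing duplicates with SAMtools. Peaks were called with MACS at a fixed 200 bp extension and annotated by region. The deposited lists give a fold enrichment (a linear ratio) and a q-value per peak. All peaks passed the stated limits (q-value below 0.05, fold above 1.2). How libraries were combined into 1 list per genotype, and their depths, are not given in the sources used here.

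Peaks of the 2 lists were matched by an overlap of 1 bp with Python 3.11.15, pandas 2.3.3, NumPy 2.4.6, SciPy 1.17.1 and pysam 0.24.0, and plotted with matplotlib 3.10.9. Shares carry Wilson intervals, and no replicate test was possible. Sequences and gene lengths came from the GRCm38 genome and GENCODE annotation; 94.3% of 20730 transcripts had the same position there as in the deposited lists. Motif words were counted in the central 200 bp. Matching was tested on simulated peaks. Fold steps were called whole within 2e-05 of a multiple.

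Named were the 10 highest peaks of each class among those assigned to a named gene, 1 per gene, the 5 pairs at each end with a fold enrichment of at least 4, the 10 and 5 genes with most peaks, up to 4 members per gene list by Ts65Dn-only peaks, and 11 genes of interest to the study, among them Brwd1 and App. Marker genes without a Ts65Dn-only peak were named after their values were seen. Members and lists were chosen with earlier results of these data known. Alternatives were a fold minimum of 4, a stricter q-value, other overlap rules and equal list lengths. RNA-seq count files were not used. A few items that the naming rule covers are not reported here.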

Additional observations from a re-analysis of the deposited data

How the results depend on the processing

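No paired analysis was possible because each genotype came as 1 pooled list with no value per library, and for the same reason no library could be left out in turn. The main values were 14621 Ts65Dn-only and 509 euploid-only peaks, of which 17.2% and 16.7% were at proximal promoters. With a fold enrichment of at least 4 in both lists these were 8923 and 195 peaks, with 30.7% and 27.2% at promoters. An overlap of 50% of both peaks gave 3107 euploid-only peaks (54.2% at promoters) and a promoter share of 23.3% in Ts65Dn-only peaks, and counting peaks within 500 bp as shared gave 16.3% there. With the top 7760 of each list by q-value, 1353 Ts65Dn and 1291 euploid peaks were not shared (54.5% and 47.3% at promoters), and by fold enrichment 1585 and 1552 (44.4% and 46.8%). With the top 15521 by q-value these were 3194 and 2710 (24% and 24.7%), and by fold enrichment 3785 and 3311 (18.9% and 31.2%). At equal list lengths the excess of Ts65Dn-only peaks was thus largely gone, since the lists were then cut to the same number. The median log2 ratio of pairs, 0.30 with mutual best pairs, was 0.30 with every overlapping pair, 0.27 with fold enrichments of at least 4, 0.29 with 50% overlap, 0.30 in the top 7760 by fold enrichment, and 0.33 in the top 15521 by q-value and by fold enrichment. Alternatives chosen after seeing the data gave 0.34 for the 1248 pairs with both fold enrichments at the genome-wide background. They gave 0.29 for the 11945 pairs with neither at it. The difference between the triplicated segment and the rest, -0.09, was -0.14 against the rest of chromosomes 16 and 17. Among 19 gene lists, the number above the share of all genes went from 15 to 12 and 10 at equal list lengths by q-value and fold enrichment. With fold enrichments of at least 4, immediate early genes (85.7%) and excitatory markers (80% of 5) went from below to above all genes (47.6%), and BAF subunits (43.5%) and oligodendrocyte markers (0 of 1) from above to below. BAF subunits were also below at equal lengths by both rankings, GABA receptor genes by q-value, and vesicle genes, pan-neuronal genes (9.09% beside 18.6%) and oligodendrocyte markers (0 of 2) by fold enrichment, while no GABAergic marker kept a peak. The promoter share of Ts65Dn-only peaks, slightly above that of euploid-only peaks, was below it with 50% overlap of both peaks, with 50% of the shorter peak (17.3% against 18.4%), and in the top 15521 by q-value or the top 7760 and 15521 by fold enrichment. The pair median stayed above 0, and the segment difference stayed below 0 in each alternative run for it. Only 2 segment pairs had both fold enrichments at the genome-wide background, with a median of 0.71 against 0.34 outside the segment. Where values moved, the cause was not tested. The depth of the libraries is unknown and limits every statement on presence in a list.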
